A study of Mus musculus with 2 samples.

Results

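The genes described here are the 7 tetraspanins Cd9, Cd37, Cd53, Cd63, Cd81, Cd82 and Cd151. They were taken by symbol from the gene column of both libraries, where all 7 had a row among 31053 genes. Another 24 tetraspanin genes had rows too and served as a second list. The members held 19108 UMIs in the WT library and 31124 UMIs in the KO library, a UMI (unique molecular identifier) being the tag that marks a single captured RNA molecule.

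Tetraspanins are small proteins that cross the membrane several times and carry a large extracellular loop. They bind integrins, immunoglobulin-family proteins and each other in the membrane, and the resulting platforms take part in adhesion, antigen receptor signalling, membrane fusion and sorting into endosomes and extracellular vesicles. In leukocytes CD37 and CD53 are known as blood cell proteins, CD9, CD81 and CD82 as widely made surface proteins, CD63 as a protein of late endosomes and granules, and CD151 as the partner of laminin-binding integrins in epithelia.

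The study asked how loss of a long non-coding RNA, LncRNA17Rik in the labels and lncLy6c in the study, changes the myeloid cells of the mouse gut. Cells labelled cd11b+ from gut lamina propria, which came from colon, were sequenced as 1 library of WT mice and 1 library of LncRNA17Rik knockout mice (KO). The KO mice were made by CRISPR-Cas9 on a C57BL/6J background with cuts on either side of the first exons, and each library was a pool of male mice 8 weeks old. The study gave more cells for each genotype than the barcodes analysed here, by far more for WT, and that difference was not resolved.

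With 1 pooled library for each genotype there was no replicate, so no test between genotypes was made and every interval covers counting error only. A level is the number of UMIs of a gene in 1000000 UMIs of the cells of a class (CPM), with an exact Poisson 95% interval in the plot of levels. A ratio is the log2 of the KO level over the WT level, and the values in brackets after it are its 95% interval, an exact binomial one conditional on the gene's UMIs in both libraries. These 3′ libraries count molecules and not fragments, so levels were not scaled by gene length.

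After the filter of the study, 2597 WT cells and 2514 KO cells remained, with medians of 5073 and 6564.5 UMIs, and the kept cells shared 0 barcodes between the libraries. The gene matched to LncRNA17Rik by its primers, 1700016P04Rik, had 0 UMIs in both libraries, so the genotype labels could not be checked. Clusters were given class names by their markers, written with the ending -like, and 8 classes had at least 50 cells in each library: B-like, T-like, cDC1-like, cDC2-like (conventional dendritic cells), eosinophil-like, inflammatory monocyte-like, neutrophil-like and resident macrophage-like cells. Itgam, which encodes CD11b, was found in 60% of WT and 82.1% of KO inflammatory monocyte-like cells but in 12.5% and 2.33% of B-like cells, so classes with little Itgam were present among the cells labelled cd11b+. The libraries differed in their cells. Neutrophil-like cells were 3.27% of WT and 10.7% of KO cells, and eosinophil-like cells 8.89% and 16.3%. Epithelial-like cells were 5.62% and 0.716%, and plasma-like cells 9.01% and 0.199%.

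RNA of other cell types also differed between the libraries. The 6 epithelial markers summed to between 94.8 and 301 CPM in the 8 WT classes and to between 9.71 and 91.2 in the KO classes, with Krt18, Krt19 and Cdh1 at 0 in KO B-like cells, Krt8 and Krt18 in KO T-like cells, Krt8 and Krt19 in KO eosinophil-like cells and Cdh1 in WT neutrophil-like cells. Immunoglobulin constant genes and Jchain summed to between 1076 and 8977 CPM in the WT classes and to between 65.9 and 138 in the KO classes, B-like cells (7733 and 6523) set aside. Neutrophil markers stood at 8.79 CPM in WT and 165 in KO cDC1-like cells, and at 689 in WT and 17.4 in KO B-like cells. The part of free or attached RNA in the values of the members was not tested, apart from the left-out cells given beside the results.

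Over all cells of a library, whatever their class, Cd53 was the highest member in WT with 432 CPM (521 in KO), followed by Cd9 with 196 CPM (460 in KO) and Cd63 with 170 CPM (126 in KO). Cd82 stood at 81.1 CPM in WT and 128 in KO, Cd81 at 76.4 and 110, and Cd37 at 41.7 and 47.1. These totals mix classes in shares that differ between the libraries, so the members were compared within classes.

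Among 56 pairs of a member and a class, 49 had at least 20 UMIs and were counted. In 21 of them the interval lay above 0, in 9 below 0, and in 19 it included 0. A change of at least 2-fold, with 1 CPM added to both levels, was reached upward in 4 pairs and downward in 4. These counts moved with the processing, from 3 to 8 upward and from 2 to 5 downward over the alternatives, with 8 upward and 2 downward when each cell was classed by its highest marker score. The median ratio of the members ran from -0.25 in B-like to 0.56 in cDC2-like cells, beside -0.11 and -0.20 over all genes counted there, and was 0.38 beside -0.22 in T-like and 0.33 beside -0.17 in resident macrophage-like cells.

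These counts were set beside those of all genes with at least 20 UMIs in the same class. The genes were not matched to the members in UMIs, and more UMIs give a narrower interval. The shares above and below 0 are thus not the counts to expect for the members. In B-like cells 1 of 6 members was past 2-fold (11.3% of all genes), 1 lay above 0 (6.81%) and 2 below (12.9%). In T-like cells 2 of 6 were past 2-fold (17.9%), 3 lay above 0 (10.9%) and 1 below (22.6%). In cDC1-like cells 1 of 6 was past 2-fold (5.73%), 2 lay above 0 (9.23%) and 1 below (19.8%). The 2 classes with the most members above 0 were cDC2-like and resident macrophage-like cells. In cDC2-like cells 1 of 6 was past 2-fold (10.1%), 4 lay above 0 (11.3%) and 1 below (30.3%). In resident macrophage-like cells 1 of 7 was past 2-fold (9.94%), 4 lay above 0 (12.4%) and 1 below (24.7%). In inflammatory monocyte-like cells 2 of 6 were past 2-fold (10.7%), 3 lay above 0 (13.0%) and 2 below (27.6%). The granulocyte classes had 0 members past 2-fold. In eosinophil-like cells the shares of all genes were 17.7% past 2-fold, 14.1% above 0 and 14.1% below, beside 2 members above 0 and 1 below. In neutrophil-like cells they were 20.8%, 9.44% and 20.2%, beside 2 members above 0 and 0 below.

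**Figure D1:**
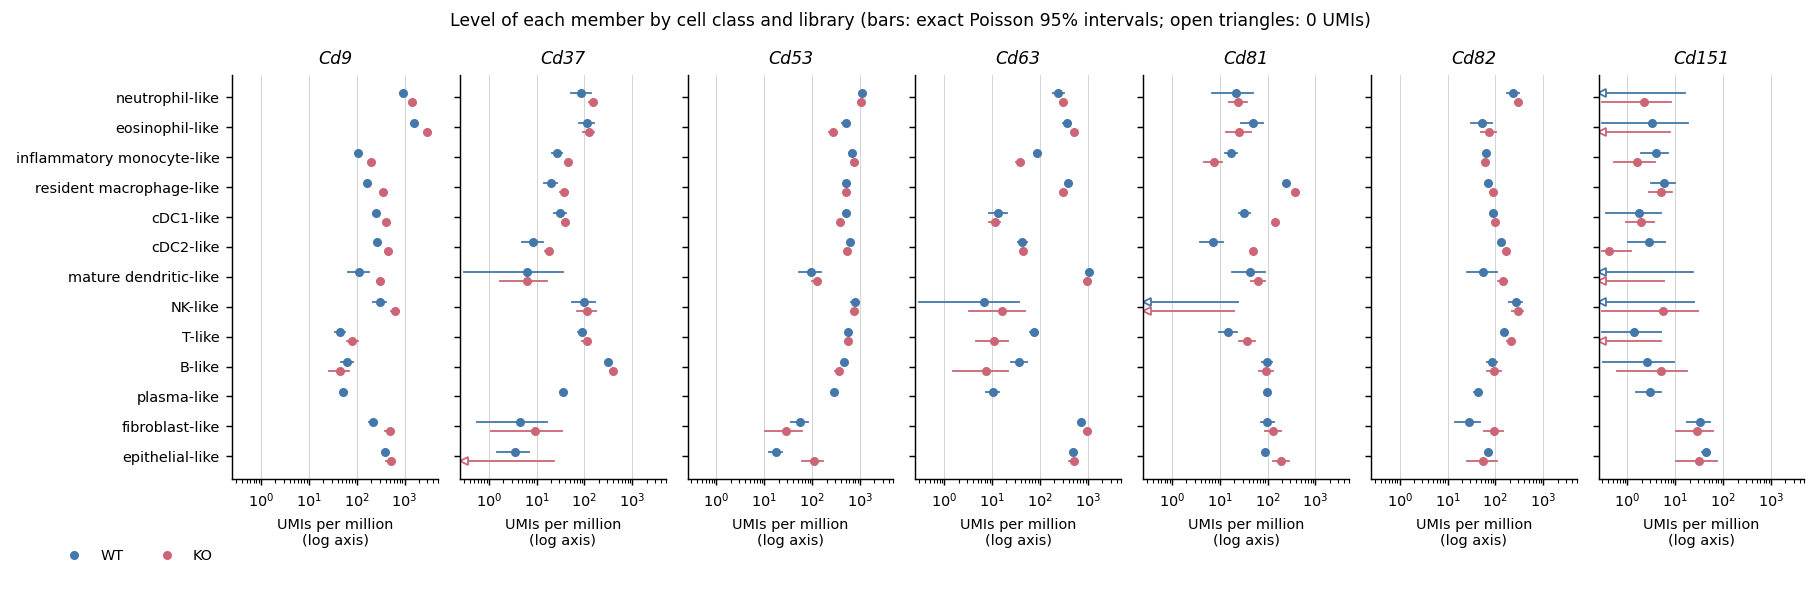
Level of each member, in CPM on a log axis, in 13 cell classes of the WT (blue) and KO (red) libraries, with exact Poisson 95% intervals; open triangles at the left edge mark 0 UMIs, and the KO plasma-like class, with 5 cells, is not drawn. Cd53 is low in the mature dendritic-like, fibroblast-like and epithelial-like rows and higher in the rows of the other classes, Cd151 is highest in the fibroblast-like and epithelial-like rows, and the KO points of Cd9 lie to the right of the WT points in every drawn class but B-like.

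Cd37 was highest in B-like cells and Cd53 in neutrophil-like cells, and both were low in mature dendritic-like cells as well as in fibroblast-like and epithelial-like cells. Cd37 (ENSMUSG00000030798) lies on the minus strand at chr7:45233632-45239115 of GRCm38 and overlaps Tead2 on the other strand. Its level was highest in B-like cells of both libraries, with 304 CPM in WT (237 UMIs) and 394 in KO (159 UMIs). Next in WT came eosinophil-like cells with 112 and NK-like cells with 99.6, and next in KO neutrophil-like cells with 151 and eosinophil-like cells with 122, and in both libraries the intervals of these neighbours overlapped. Among the dendritic classes it stood at 31.0 in WT and 39.6 in KO cDC1-like cells, 8.46 and 17.9 in cDC2-like cells, and 6.25 and 6.41 in mature dendritic-like cells, the last overlapping the intervals of fibroblast-like cells (4.59 and 9.41). In epithelial-like cells it stood at 3.49 in WT, and KO cells held 0 UMIs, for which the exact Poisson upper limit is 23.1 CPM. Cd53 (ENSMUSG00000040747), on the minus strand at chr3:106759921-106790149, was highest in neutrophil-like cells with 1111 CPM in WT and 1027 in KO. In the other blood cell classes it ran from 93.7 (WT) and 125 (KO) in mature dendritic-like cells to 784 and 762 in NK-like cells. Fibroblast-like cells held 55.1 in WT and 28.2 in KO, and epithelial-like cells 17.5 and 107, the last from 17 UMIs in 18 cells. With each cell thinned to 2000 UMIs, 38.7% of WT B-like cells (95% interval 31.3 to 46.5, exact Clopper-Pearson) and 52.9% of KO B-like cells (41.8 to 63.9) had a Cd37 UMI, leaving out 32 and 1 shallower cells. The unthinned shares were 55.0% and 77.9%. In epithelial-like cells, which should lack the gene, 2.11% of thinned WT cells had one (4.79% unthinned), at a median depth of 15127 UMIs against 2929.5 in WT B-like cells. The thinned Cd37 share was 1.03% in WT cDC2-like cells and 0 of 16 WT mature dendritic-like cells, at or under that of epithelial-like cells. For Cd53 the thinned share was 83.9% in WT and 85.8% in KO neutrophil-like cells, 6.25% and 7.69% in mature dendritic-like cells and 5.26% and 15.4% in epithelial-like cells.

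The RefSeq promoters of these genes, 250 bases before to 50 after the start on GRCm38.p6, are shown because both hold the letters GAGGAAGT, the core of sites bound by the myeloid and B cell factor PU.1. Capitals mark them, here read from the opposite strand as ACTTCCTC.
Cd37, minus strand, chr7:45238790-45239089: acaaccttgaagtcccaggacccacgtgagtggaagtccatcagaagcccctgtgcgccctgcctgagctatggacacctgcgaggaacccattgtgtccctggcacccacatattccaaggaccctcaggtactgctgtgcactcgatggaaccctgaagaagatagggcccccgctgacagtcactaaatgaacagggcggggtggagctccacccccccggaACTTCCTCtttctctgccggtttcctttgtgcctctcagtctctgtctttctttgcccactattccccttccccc
Cd53, minus strand, chr3:106790100-106790399: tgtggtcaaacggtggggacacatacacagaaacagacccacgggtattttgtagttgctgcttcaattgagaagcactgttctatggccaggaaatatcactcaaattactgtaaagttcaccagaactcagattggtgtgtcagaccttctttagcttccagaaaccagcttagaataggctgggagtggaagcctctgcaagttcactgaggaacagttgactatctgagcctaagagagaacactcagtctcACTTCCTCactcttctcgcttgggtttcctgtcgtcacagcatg
The letters were searched on both strands and occurred in 3.28% of 27025 promoters of the same length; of the other members only 1 of 4 starts of Cd82 held them. They begin at position -25 in Cd37 and 6 bases after the start in Cd53. A match is a description of the sequence and not of binding.

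Between the libraries Cd37 lay above 0 in 5 of 8 classes and below in 0, and Cd53 above in 1 and below in 4. Cd37 went from 19.8 CPM in WT to 37.6 in KO resident macrophage-like cells (ratio 0.92, interval 0.41 to 1.46). In inflammatory monocyte-like cells it went from 27.2 to 45.6, with a ratio of 0.75 (0.34 to 1.17). In cDC2-like cells it went from 8.46 to 17.9, 18 UMIs against 129, with a ratio of 1.08 (0.36 to 1.88) that stayed under 2-fold once 1 CPM was added, and over the alternatives it ran from 0.29 to 2.58 and was past 2-fold in 4 of 13. These classes are made of different clusters in the libraries, and within the larger macrophage and monocyte clusters Cd37 was not higher in KO. In resident macrophage-like cluster 7, led by Retnla and Pf4, which had 60 WT and 262 KO cells, it stood at 52.8 in WT and 39.8 in KO. In cluster 8, led by the complement genes C1qa and C1qc, which had 286 WT and 32 KO cells, it stood at 13.2 and 12.4. In inflammatory monocyte-like clusters 3 and 5 it stood at 22.9 and 22.2, and at 64.6 and 50.4. Within cDC2-like cluster 2 it was higher in KO, at 8.58 and 15.3. Cd53 was lower in KO eosinophil-like cells, at 499 CPM in WT and 276 in KO, with a ratio of -0.86 (-1.21 to -0.51). Over the alternatives that ratio ran from -0.98 to -0.21. In the same class resident macrophage markers went from 1643 CPM in WT to 212 in KO, while neutrophil markers stood at 6361 and 6917, and the part of other cells' RNA was not tested. Cd53 was also lower in cDC1-like cells, at 511 and 386, with a ratio of -0.40 (-0.52 to -0.29). In resident macrophage-like cells it stood at 515 and 513, with a ratio of -0.01 (-0.12 to 0.10), but it was lower in KO within both clusters of the class, at 650 and 525 in cluster 7 (-0.31, -0.50 to -0.11) and 488 and 377 in cluster 8 (-0.38, -0.70 to -0.06), which the libraries hold in unlike shares. In inflammatory monocyte-like cells its ratio of 0.14 turned below 0 under 4 other settings, among them -0.35 with 4000 variable genes. Within clusters 3 and 5 of that class the Cd53 ratios were 0.02 and -0.04, with intervals that included 0.

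Cd9 and Cd81, which bind integrins and each other's partners in the membrane, were each higher in KO in several classes. Cd9 (ENSMUSG00000030342) lies on the minus strand at chr6:125460266-125494791, with Gm28809 and Gm26728 on the other strand. Its level was highest in the eosinophil-like class of both libraries, with 1551 CPM in WT (469 UMIs) and 2878 in KO (1346 UMIs). That class had Siglecf, Ccr3 and Alox15 raised but also the neutrophil markers Mmp9 and Retnlg, and its eosinophil markers summed to 1068 CPM in WT and 1709 in KO, beside 6361 and 6917 for neutrophil markers. Epx, which encodes eosinophil peroxidase, was at 0 in both libraries. Neutrophil-like cells came next with 911 and 1415, and the intervals of these neighbours did not overlap in either library, though with each library clustered alone the highest WT class was neutrophil-like. Of the 8 classes compared, Cd9 was higher in KO in 7. Resident macrophage-like cells went from 164 to 358 CPM, with a ratio of 1.12 (0.95 to 1.30) that was past 2-fold, as it was in 9 of 13 alternatives. Inflammatory monocyte-like cells went from 104 to 195, with a ratio of 0.91 (0.70 to 1.11) that was past 2-fold in 8 of 12 alternatives and ran up to 2.25. cDC2-like cells went from 268 to 457, with a ratio of 0.77 (0.64 to 0.90) that was past 2-fold in 4 of 13 alternatives. In both conventional dendritic classes the level was higher in KO. cDC1-like cells went from 258 to 410, with a ratio of 0.67 (0.52 to 0.82). The eosinophil-like ratio was 0.89 (0.74 to 1.05), though 0.23 with a stricter cell filter, and the neutrophil-like ratio 0.63 (0.42 to 0.85). In neutrophil-like cells the neutrophil markers themselves went from 40019 CPM in WT to 75547 in KO. Resident macrophage markers there went from 1098 to 416, and the part of these shifts in the Cd9 value was not tested. T-like cells went from 44.9 to 81.2, with a ratio of 0.86 (0.32 to 1.38) that was past 2-fold in 3 of 13 alternatives. B-like cells went the other way, from 62.8 to 44.7, with an interval that included 0 (ratio -0.49, -1.36 to 0.31). The classes with under 50 cells in at least 1 library, which were not counted, stood at 306 and 637 in NK-like, 112 and 303 in mature dendritic-like, 218 and 489 in fibroblast-like and 384 and 521 in epithelial-like cells. Plasma-like cells went the other way, from 50.9 in WT to 28.0 in KO, the last from 4 UMIs in 5 cells.

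The Cd9 difference was also seen within clusters of the macrophage, monocyte and conventional dendritic classes, but not beyond counting error within those of T-like cells. In resident macrophage-like cluster 7 the level was 140 CPM in WT and 356 in KO, and in cluster 8 it was 169 and 381. In inflammatory monocyte-like cluster 3, with 454 WT and 41 KO cells, it was 109 and 178. In inflammatory monocyte-like cluster 5, with 47 WT and 299 KO cells, it was 23.8 (7 UMIs) and 164. Thus the macrophage and monocyte clusters that hold most WT cells and those that hold most KO cells had the same order. In the cDC1-like clusters 6 and 13 it was 253 and 400, and 269 and 421, and in cDC2-like cluster 2 it was 267 and 399. In the T-like clusters 11, 15 and 21 the ratio was 0.89 (-0.12 to 1.83), 0.58 (-0.24 to 1.41) and 0.084 (-1.30 to 1.56), intervals that all included 0. The thinned share of resident macrophage-like cells with a Cd9 UMI was 21.7% in WT (17.0 to 27.0) and 36.4% in KO (30.6 to 42.6), leaving out 69 and 33 cells, and 38.7% and 69.4% unthinned. The lowest thinned shares among the classes compared were those of T-like cells in WT (7.56%, and 13.0% in KO) and of B-like cells in KO (3.53%, and 8.33% in WT). Eosinophil-like and neutrophil-like cells, which had the highest levels of Cd9, made up more of the KO library, and the eosinophil markers in resident macrophage-like cells were at 15.4 CPM in WT and 15.7 in KO, and the neutrophil markers at 227 and 123. Neutrophil markers were higher beside Cd9 in KO inflammatory monocyte-like cells, at 363 CPM in WT and 673 in KO, in KO T-like cells, at 40.8 and 187, and in KO cDC1-like cells, at 8.79 and 165, and their part in the Cd9 values was not tested. Without cells holding a UMI of an epithelial or fibroblast marker, the resident macrophage-like ratio was 1.04, the cDC2-like ratio 1.03 and the inflammatory monocyte-like ratio 1.26. Without those cells the T-like ratio was 0.02 (-0.80 to 0.85), an interval that included 0, and with the top 3% of doublet scores removed it was 0.34.

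**Figure D2:**
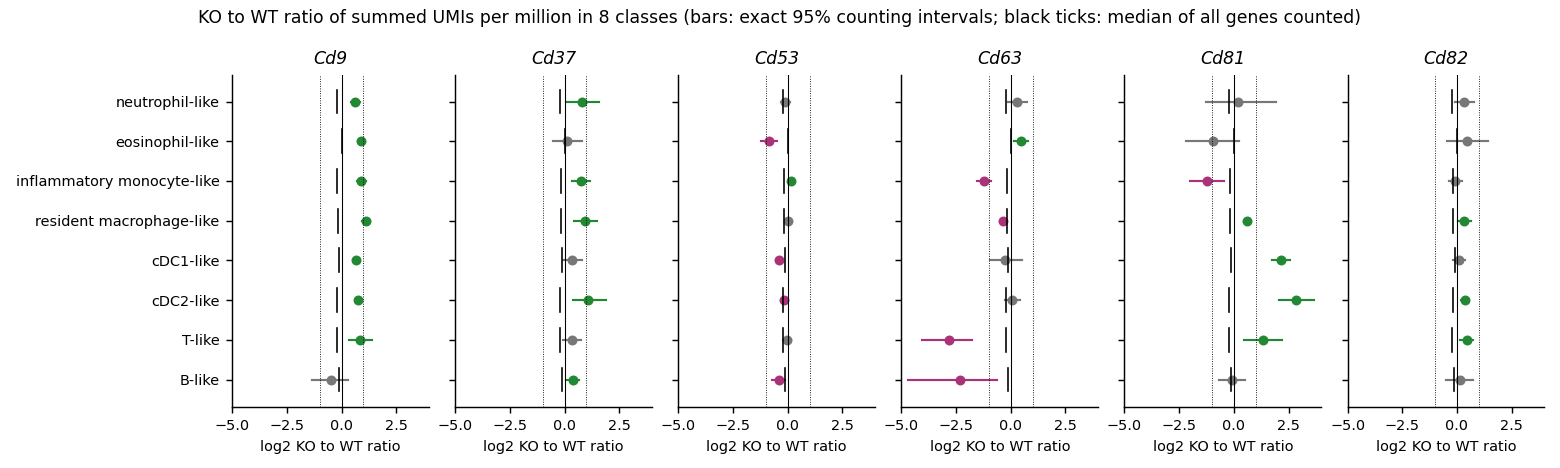
KO to WT ratio of Cd9, Cd37, Cd53, Cd63, Cd81 and Cd82 in 8 classes, with exact conditional binomial 95% intervals; green marks an interval above 0, purple one below 0 and grey one that includes 0, dotted lines mark 2-fold, and the black tick is the median of all genes counted in that class. Cd9 lies above 0 in 7 classes, Cd81 is farthest to the right in cDC2-like cells (2.82) and Cd63 farthest to the left in T-like cells (-2.81).

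Cd81 (ENSMUSG00000037706) lies on the plus strand at chr7:143052739-143067934, with R74862 on the other strand. Its protein is a widely made tetraspanin that takes part in signalling and adhesion of lymphocytes. Resident macrophage-like cells were highest in both libraries, with 242 CPM in WT (551 UMIs) and 373 in KO (1091 UMIs), ahead of fibroblast-like cells in WT (98.8) and epithelial-like cells in KO (195), and B-like cells stood at 97.4 and 91.8. NK-like cells held 0 UMIs in both libraries, with exact Poisson upper limits of 24.5 CPM in WT and 20.1 in KO. Mature dendritic-like cells stood at 43.7 in WT and 64.1 in KO, with intervals that overlapped. Of the 8 classes compared, those of conventional dendritic cells had the highest ratios. cDC1-like cells went from 32.8 CPM in WT (56 UMIs) to 146 in KO (758 UMIs), with a ratio of 2.15 (1.76 to 2.57). cDC2-like cells went from 7.05 (15 UMIs) to 49.95 (360 UMIs), with a ratio of 2.82 (2.08 to 3.68). Both were past 2-fold under every alternative that gave a value, with ranges of 1.76 to 2.82 and 1.81 to 3.06. Within cDC1-like cluster 6 the level was 32.3 in WT and 175 in KO, and in cluster 13, led by cell cycle genes, 34.2 and 114. Within cDC2-like cluster 2 it was 7.15 in WT and 33.1 in KO. The other cDC2-like cluster, 14, led by Ccl17 and Mgl2, had 2 WT and 121 KO cells, and its KO level was 98.8.

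The Cd81 UMIs of the conventional dendritic classes came from a minority of cells. Thinned to 2000 UMIs, 5.11% of WT cDC1-like cells (2.08 to 10.2) and 15.2% of KO cells (11.2 to 19.8) had a UMI, and 13.3% and 36.7% unthinned. In cDC2-like cells the thinned shares were 1.03% and 5.06%, and 6.97% and 23.01% unthinned. The 5 cells with the most Cd81 held 53.6% of its UMIs in WT cDC1-like cells and 19.9% in KO. Markers of resident macrophages, the class richest in Cd81, were at 119 CPM in WT and 152 in KO cDC1-like cells, and at 276 and 170 in cDC2-like cells. Without cells holding an epithelial or fibroblast marker UMI the ratios were 2.82 in cDC1-like and 2.11 in cDC2-like cells.

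In the remaining classes Cd81 moved both ways. The resident macrophage-like log2 ratio was 0.62 (0.47 to 0.77), with 235 and 324 CPM in cluster 7 and 244 and 914 in cluster 8, the last from 32 cells. Over the alternatives this ratio ran from 0.60 to 2.34, and 8 of 13 put it past 2-fold. The T-like level went from 15.2 (22 UMIs) to 37.9 (28 UMIs), with a ratio of 1.32 (0.46 to 2.19), and that ratio was below 0 under 3 other settings. The T-like class is made of clusters in unlike shares, with 142, 74 and 26 WT cells and 33, 47 and 30 KO cells in clusters 11, 15 and 21. Most Cd81 UMIs lay in cluster 15, where the ratio was 0.61 (-0.34 to 1.59), and the other clusters held at most 3 UMIs per library. Resident macrophage markers went from 69.1 CPM in WT to 211 in KO T-like cells, and their part in the value was not tested. Inflammatory monocyte-like cells went from 17.2 (48 UMIs) to 7.44 (23 UMIs), with a ratio of -1.21 (-1.99 to -0.46), and that ratio was above 0 under 2 other settings and past 2-fold lower in 6 of 12. Within cluster 3 it was 0.60 (-0.93 to 1.84) and within cluster 5 it was -0.67 (-2.46 to 1.74), so the class difference was not seen within these clusters. Markers of resident macrophages, the class richest in Cd81, went from 3827 CPM in WT to 1812 in KO in these monocyte-like cells, and their part in the value was not tested. The T-like and monocyte-like values depended on which cells were kept or how they were classed. B-like cells showed no difference beyond counting error, at a ratio of -0.08 (-0.69 to 0.50). Eosinophil-like cells went from 49.6 (15 UMIs) to 25.7 (12 UMIs), with a ratio of -0.95 (-2.18 to 0.24). That ratio was past 2-fold lower in 4 of 12 alternatives, and without cells holding an epithelial or fibroblast marker UMI it was -1.55 (-2.87 to -0.24), an interval below 0. Here too resident macrophage markers fell, from 1643 CPM in WT to 212 in KO eosinophil-like cells, and their part was not tested. In neutrophil-like cells the level was 21.7 (5 UMIs) and 24.6 (22 UMIs), with a ratio of 0.18 (-1.26 to 1.94). That ratio ran from -1.61 to 0.65 over the alternatives and kept its sign in 7 of 13. It was past 2-fold lower with each library clustered alone (-1.25).

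The promoters of Cd9 and Cd81 are shown because Cd9 lay above 0 in the most classes, 7, and Cd81 reached the highest ratio, 2.82; capitals mark GGGCGG, the core of the GC box, on either strand.
Cd9, minus strand, chr6:125494711-125495010: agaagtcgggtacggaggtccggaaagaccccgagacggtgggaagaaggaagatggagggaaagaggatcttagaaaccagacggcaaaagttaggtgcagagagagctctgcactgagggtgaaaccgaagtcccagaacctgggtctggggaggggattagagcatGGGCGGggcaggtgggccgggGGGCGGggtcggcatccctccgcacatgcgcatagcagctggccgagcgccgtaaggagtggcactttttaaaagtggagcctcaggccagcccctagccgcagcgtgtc
Cd81, plus strand, chr7:143052500-143052799: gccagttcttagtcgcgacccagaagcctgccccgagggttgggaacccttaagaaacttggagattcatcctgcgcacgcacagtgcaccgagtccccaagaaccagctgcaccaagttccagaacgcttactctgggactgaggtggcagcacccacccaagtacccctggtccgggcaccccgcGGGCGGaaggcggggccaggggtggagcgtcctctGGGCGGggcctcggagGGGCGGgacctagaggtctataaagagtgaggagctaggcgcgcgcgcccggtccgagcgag
Cd9 held 2 matches and Cd81 held 3. The letters also occurred at the first listed starts of Cd37, Cd82 and Cd151, not at those of Cd53 and Cd63, and in 35.9% of all promoters. TATAAA was found in Cd81 and in none of the other first starts (14.2% of promoters), and CACGTG in Cd37 alone (7.24%). AGGAAGT, contained in the longer PU.1-type letters, occurred in Cd37 and Cd53 (9.57%), AGAGGAAG in Cd37 (4.51%), and CTTCCTC, which in Cd37 and Cd53 lies within the capitals shown above, in Cd37, Cd53 and Cd63 (13.5%). TGACTCA (5.17%) and TGACGTCA (1.88%) occurred at none of the first starts, and the CLEAR, interferon-stimulated response element, NF-kB and longer ETS consensus letters matched no member.

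Cd63 (ENSMUSG00000025351), on the plus strand at chr10:128900989-128912822, encodes the protein of late endosomes, granules and exosomes. Its level was highest in mature dendritic-like cells of the WT library with 1069 CPM, ahead of fibroblast-like cells with 714. In KO these classes stood at 948 and 979 and could not be told apart. With each cell classed by its highest marker score, a mast-like class was highest in WT. Epithelial-like cells held 493 and 508, eosinophil-like cells 370 and 509, and resident macrophage-like cells 393 and 308. At the low end, plasma-like cells held 10.5 in WT and NK-like cells 6.64 in WT and 16.3 in KO. Among the dendritic classes the mature dendritic-like level contrasted with cDC1-like cells, at 13.5 and 11.4, and cDC2-like cells, at 42.8 and 44.8. The intervals of both of these ratios included 0. Over the alternatives the cDC1-like ratio ran from -1.9995 to 0.70 and stayed under 2-fold in 9 of 12. It was past 2-fold lower with every deposited barcode (-1.35), a stricter cell filter (-1.9995) and 4000 variable genes (-1.28).

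Cd63 was lower in KO past 2-fold in 3 classes where it is sparse. T-like cells went from 76.0 CPM in WT (110 UMIs) to 10.8 in KO (8 UMIs), with a ratio of -2.81 (-4.06 to -1.78). In WT, 5 cells held 68.2% of these UMIs, and T-like cluster 15, led by Icos and Rora, stood at 204 in WT and 17.5 in KO. B-like cells had 29 UMIs in WT and 3 in KO, with a ratio of -2.32 (-4.68 to -0.63), and 5 cells held 79.3% of the WT UMIs. These values rest on few cells, and with the top 3% of doublet scores removed too few B-like UMIs were left to count (ratio -0.57). Without cells holding over 1% immunoglobulin UMIs the T-like ratio was -2.84, and without cells holding an epithelial or fibroblast marker UMI it was -3.65. Without the latter, B-like cells kept 6 and 2 UMIs, too few to count. Inflammatory monocyte-like cells went from 87.3 to 37.5, with a ratio of -1.22 (-1.55 to -0.89). In cluster 3, the main WT monocyte cluster, the level was 91.7 in WT and 31.1 in KO (7 UMIs), and in cluster 5, the main KO cluster, it was 37.4 and 30.9. Over the alternatives the monocyte value ran from -1.82 to -0.21, always below 0, and was past 2-fold in 5 of 12. Resident macrophage markers, whose own class held 393 and 308 CPM of Cd63, also went from 3827 to 1812 CPM in these monocyte-like cells, and their part in the value was not tested.

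The resident macrophage-like value of Cd63 did not keep its sign. The class as a whole had a ratio of -0.35 (-0.49 to -0.22), from 894 UMIs in WT and 903 in KO. In cluster 7 the level was 264 in WT and 267 in KO, and in cluster 8 it was 419 and 765. Cluster 8 held most WT cells and cluster 7 most KO cells, so the class value mixes clusters in unlike shares. Under 7 alternatives the class ratio was above 0, up to 1.07 with a stricter cell filter. In eosinophil-like cells Cd63 was higher in KO, with a ratio of 0.46 (0.13 to 0.80).

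**Figure D3:**
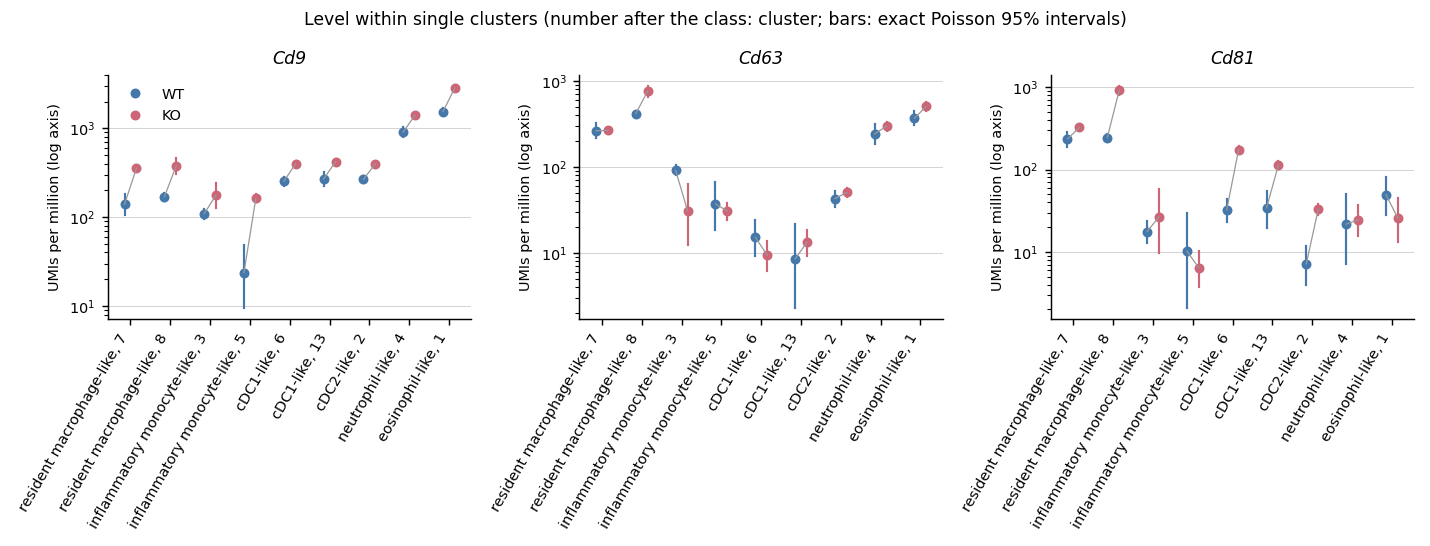
Level of Cd9, Cd63 and Cd81 in CPM, on log axes, in 9 single clusters of the WT (blue) and KO (red) libraries with exact Poisson 95% intervals, joined by a grey line. Cd9 is higher in KO in each cluster drawn, Cd81 most in the cDC1-like and cDC2-like clusters and in resident macrophage-like cluster 8 (244 and 914), and Cd63 goes up in cluster 8 (419 and 765) and down in inflammatory monocyte-like cluster 3 (91.7 and 31.1).

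Cd82 (ENSMUSG00000027215), on the minus strand at chr2:93419111-93463140, holds Mir7001 on its own strand and overlaps Gm10804 on the other; its protein, also known as KAI1, restrains motility in many cells. Among the classes named here it was highest in NK-like cells, with 266 CPM in WT and 294 in KO, and neutrophil-like cells, with 234 and 295, whose intervals overlapped in both libraries. T-like cells came next with 153 and 208, with a ratio of 0.44 (0.14 to 0.75), and cDC2-like cells with 134 and 171, a ratio of 0.35 (0.17 to 0.54). Both turned below 0 under 1 setting, to -0.077 in T-like cells with 4000 variable genes and -0.32 in cDC2-like cells with each library clustered alone. Within the T-like class the level was 314 and 332 in cluster 15, the highest of its clusters, and 51.5 and 78.4 in cluster 21, the lowest, and in each T-like cluster the interval of the ratio included 0. Cluster 15 held 74 of 242 WT and 47 of 110 KO T-like cells. Beside its T cell markers it had the ILC2 (group 2 innate lymphoid cell) markers Il1rl1, Gata3 and Areg raised. At Leiden resolution 2 an ILC2-like class was highest in Cd82 in both libraries, and by marker score in WT. Resident macrophage-like cells went from 70.3 to 88.4, with a ratio of 0.33 (0.04 to 0.62). Within cluster 7 of that class they went from 37.0 to 87.1, with a ratio of 1.24 (0.46 to 2.13), and within cluster 8 from 77.0 to 103, with a ratio of 0.43 (-0.25 to 1.04). Fibroblast-like cells, cluster 17, had 12 UMIs in WT and 20 in KO, with a ratio of 1.77 (0.67 to 2.94). Cd82 lay above 0 in 3 of the 8 classes and below in 0, and none of its class ratios there was past 2-fold.

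Cd151 (ENSMUSG00000025510), on the plus strand at chr7:141467392-141471473 with Gm10575 on the other strand, had its highest levels outside the blood cells. Epithelial-like cells held 43.6 CPM in WT (100 UMIs) and 31.4 in KO (5 UMIs), and fibroblast-like cells 32.2 and 28.2. In each of the other classes it was at or under 5.72, and it reached 20 UMIs only in resident macrophage-like cells, with 13 in WT and 15 in KO (ratio -0.16, -1.33 to 1.03). Over all cells Cd151 stood at 8.69 CPM in WT and 2.19 in KO, while epithelial-like cells were 5.62% and 0.716% of cells. Among the compared classes with under 20 UMIs of Cd151, cDC2-like cells had 6 UMIs in WT and 3 in KO (ratio -2.76, -5.39 to -0.53), and the intervals of the others included 0.

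Together the members, whose transcripts may be captured with unlike efficiency that was not measured, summed to the most in the granulocyte classes. Eosinophil-like cells held 2638 CPM of all members in WT and 3883 in KO, and neutrophil-like cells 2608 and 3213. The other classes lay between 521 (WT plasma-like) and 1828 (KO NK-like). Cd9 made up 58.8% of member UMIs in WT and 74.1% in KO eosinophil-like cells. Cd53 led in T-like, NK-like, inflammatory monocyte-like, cDC2-like and resident macrophage-like cells of both libraries, and Cd63 in fibroblast-like and mature dendritic-like cells. The leading member differed between the libraries in cDC1-like and neutrophil-like cells (Cd53 in WT, Cd9 in KO), in B-like cells (Cd53 in WT, Cd37 in KO) and in epithelial-like cells (Cd63 in WT, Cd9 in KO). The exact Poisson intervals of the members named here overlapped in KO for cDC1-like, B-like and epithelial-like cells, and in WT for neutrophil-like cells. In KO epithelial-like cells Cd9 had 83 UMIs and Cd63 had 81. Thinned to 2000 UMIs, neutrophil-like cells held a median of 2.5 members in WT and 3 in KO, and T-like cells a median of 1 in both. As the eosinophil-like class lost 201 of its WT and 383 of its KO cells to thinning, its shares were not read.

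**Figure D4:**
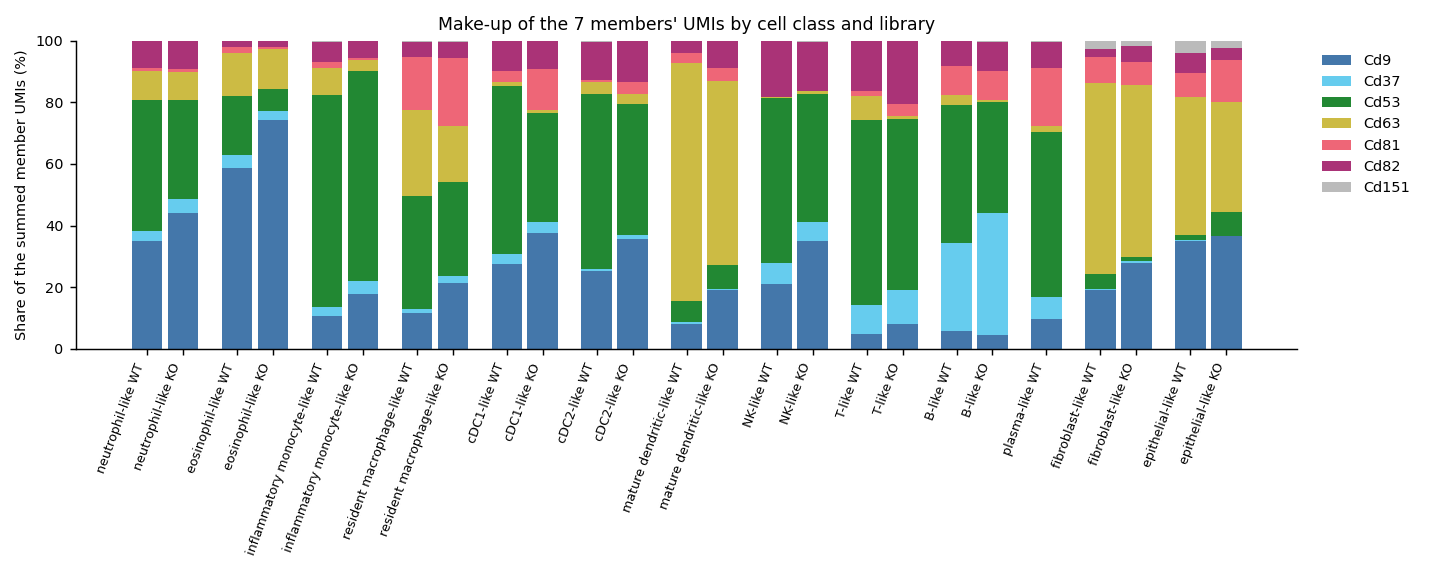
Share of the summed UMIs of the 7 members that each gave, in percent, in 13 classes of the WT and KO libraries (KO plasma-like cells, 5 in number, are not drawn). Cd9 fills most of the eosinophil-like bars (58.8% and 74.1%), Cd63 most of the mature dendritic-like and fibroblast-like bars, and Cd37 is visible mainly in B-like cells.

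The genes whose levels over 19 profiles of class and library were most like those of a member were named as a description. Only profiles with at least 50 cells entered. NK-like and mature dendritic-like cells were thus left out in both libraries, and epithelial-like, fibroblast-like and plasma-like cells in KO. Profiles of the same library share its free RNA and depth. For Cd53 they were Coro1a, Fmnl1 and Cd52 (Pearson's r of 0.939, 0.937 and 0.936 across 6743 genes), and for Cd37 Arhgap25, 5031425E22Rik and Ripor2 (0.897, 0.888 and 0.879). Cd9 was nearest to Gm14548, Lilra6 and Taldo1 (0.887, 0.883 and 0.867), all highest in KO eosinophil-like cells. Cd63 was nearest to Asph, Cpd and Mtus1 (0.885, 0.880 and 0.870), and Cd82 to Il18rap, Tfip11 and Supt4a (0.853, 0.846 and 0.812). Cd81 had the weakest likeness, with Tanc2, Fcrls and Mtss1 (0.766, 0.655 and 0.647), and Cd151 the strongest, with Gstm2, S100a16 and Slc6a8 (0.961, 0.960 and 0.960). Among the members themselves r was 0.60 for Cd9 with Cd63, 0.56 for Cd53 with Cd82 and -0.89 for Cd53 with Cd151.

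Of 62 pairs of another tetraspanin gene and a class with at least 20 UMIs, 1 was past 2-fold higher and 11 lower, and the class medians ran from -0.98 to 0.30. Over all genes, too, lower values outnumbered higher ones in every class compared, at 2.91% to 14.9% past 2-fold lower and 1.90% to 8.07% higher, so these counts and those of the partner and lysosome lists were not read as a property of the lists. Tspan13, which was highest in eosinophil-like cells (496 CPM in WT and 481 in KO), was lower past 2-fold in resident macrophage-like cells (397 and 123), inflammatory monocyte-like cells (246 and 107) and cDC2-like cells (328 and 155). It went in these classes against Cd9. Tspan31 was lower in B-like, eosinophil-like and neutrophil-like cells (69.4 and 6.41 in eosinophil-like), Tspan4 in cDC1-like and inflammatory monocyte-like cells (7.61 and 1.54 in cDC1-like), and Tspan5, Tspan9 and Tspan14 in T-like cells (36.6 and 17.6 for Tspan14). Tspan9 had 31 UMIs in WT and 0 in KO T-like cells. Tspan32 was higher in cDC2-like cells, with 2 UMIs in WT and 36 in KO. By level, Tspan1, Tspan8 and Tspan15 were highest in epithelial-like cells (795, 678 and 81.6 in WT), Tspan3 and Tspan33 in mature dendritic-like cells (394 and 212 in WT), Tspan31 and Tspan4 in fibroblast-like cells and Tspan2 in neutrophil-like cells, in both libraries. Tspan14 was highest in B-like cells (84.5 and 47.1), and Tspan5, Tspan17 and Tspan32 stayed under 50 in every class.

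Of the partner genes 16 had a row, and 1 more was not analysed here. Among 94 pairs of a partner and a class, 1 was past 2-fold higher and 14 lower. Ifitm1, an interferon-induced membrane protein, was lower in KO T-like (131 and 9.47), cDC1-like (159 and 39.1), cDC2-like (365 and 141) and resident macrophage-like cells (84.9 and 37.9). Hbegf, a growth factor that binds CD9, was lower in B-like cells (22 UMIs and 0), eosinophil-like cells and inflammatory monocyte-like cells (110 and 42.4). Its highest level was in epithelial-like cells (943 and 565), whose markers were also lower in the KO classes, and their part in the Hbegf values was not tested. Cr2, which encodes a complement receptor, was higher in B-like cells (55.1 and 122). Also in B-like cells, the integrin gene Itga4 (450 and 223) and the sheddase gene Adam17 (79.4 and 19.8) were lower. Itga6 was lower in cDC1-like and inflammatory monocyte-like cells, and Ptgfrn and Timp1 in inflammatory monocyte-like cells, each from at most 36 WT UMIs. Itgb1, Igsf8, Adam10, Sdcbp, Pdcd6ip and Ptprc were past 2-fold in 0 classes. Of 39 pairs of a late endosome or lysosome gene and a class, 2 were higher and 3 lower. Cd68 was higher in T-like and neutrophil-like cells (69.4 and 155 in neutrophil-like) and lower in eosinophil-like cells, and Scarb2 was lower in eosinophil-like and resident macrophage-like cells (190 and 85.4 in the latter). Lamp1, Lamp2 and Npc1 were past 2-fold in 0 classes, including the T-like and inflammatory monocyte-like classes in which Cd63 was lower.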

How the data were processed

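The authors deposited, for each library, a matrix of raw UMI counts per gene and barcode from 10x 3′ v3 sequencing, made with Cell Ranger 3.0.2 per the file headers and mm10 per the labels, whose processing notes also name Seurat 4. Counting rules beyond these were not given in the sources used here. Groups were taken from the labels, 1 WT and 1 KO library of pooled mice. Barcodes with 200 to 6000 genes and at most 15% mitochondrial UMIs were kept, so that 18.5% of 3185 barcodes fell out in WT and 16.8% of 3020 in KO, and totals of 18994564 and 22331342 UMIs were analysed.

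Cells of both libraries were clustered together with scanpy 1.11.5 and leidenalg 0.10.2 (2000 variable genes, 30 components, 15 neighbours, resolution 1; numpy 2.4.6, scipy 1.17.1, scikit-learn 1.9.0, matplotlib 3.10.9, Python 3.11.15), leaving out tetraspanin, partner and lysosome genes. The 23 clusters were named where at least 3 listed markers were raised at least 2-fold (10 CPM added, in at least 10% of cells); 2 clusters stayed unnamed. Doublets were not removed except as an alternative. UMIs of a gene were summed per class and library. Classes that held 50 or more WT cells and as many KO cells and genes with at least 20 UMIs were compared, and past 2-fold means with 1 CPM added. Calculations were tested on simulated data. For likeness, profiles with at least 50 cells entered, and genes with at least 50 CPM in at least 1 of these profiles. Levels were taken as log2 with 10 CPM added.

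All members were named, and the plot of levels shows them in each named class, KO plasma-like cells set aside. Also named were other listed genes with at least 200 UMIs or past 2-fold, and the 3 most alike genes of each member. For classes of several clusters, those with a member's highest and lowest levels were named. The members and lists were chosen with earlier results of these data known. The alternatives changed the cell filter, clustering, classing, depth of thinning, added level and doublet removal. 2 more, chosen after seeing the data, left out cells with a UMI of an epithelial or fibroblast marker, or with over 1% immunoglobulin UMIs. A CPM is a gene's UMIs in 1000000 UMIs of a class. Promoters came from RefSeq, GRCm38.p6, in which all 7 members had an entry. Gene positions are those of GRCm38. The values of 1 further partner gene, which the counts of the list include, are not reported here.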

Additional observations from a re-analysis of the deposited data

Results flagged for a closer look

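For 3 members, classes with intervals on opposite sides of 0 were found under the same KO to WT contrast. With 1 library for each genotype these differences between classes were not tested. The Cd53 log2 ratio was 0.998 higher in inflammatory monocyte-like cells, the only class of this gene above 0, than in eosinophil-like cells, the lowest of 4 classes below 0. The Cd63 log2 ratio was 3.27 higher in eosinophil-like cells, the only class of this gene above 0, than in T-like cells, the lowest of 4 classes below 0. The Cd81 log2 ratio was 4.03 higher in cDC2-like cells, the highest of 4 classes above 0, than in inflammatory monocyte-like cells, the only class below 0. The Cd53 and Cd81 values of inflammatory monocyte-like cells, the Cd63 value of eosinophil-like cells (-0.068 at Leiden resolution 2) and, under 7 settings, the Cd63 value of resident macrophage-like cells changed sign. Within the main clusters of inflammatory monocyte-like cells, 3 and 5, the intervals of the Cd53 and Cd81 ratios included 0.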

How the results depend on the processing

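No paired analysis was possible because each genotype has 1 library, and leaving out a replicate was not possible for the same reason. Intervals cover counting error only, so spread between mice and between preparations could not be told apart from genotype. Of 112 unthinned shares of cells, 79 lay outside the interval of the share at 2000 UMIs, and 87 did so at 500 UMIs. The class with the highest level was kept in 11 to 14 of 14 pairs of a member and a library.

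The 4 pairs past 2-fold upward became 7 with every deposited barcode, 7 with tetraspanin genes allowed in the clustering, 8 with each cell classed by its marker score, 7 with classes of at least 20 cells and 7 without cells with an epithelial or fibroblast marker UMI. The 4 pairs past 2-fold downward became 2 at Leiden resolution 0.5, 2 at resolution 2 and 2 by marker score. Of the 21 most alike genes 4 were kept with KO profiles only.

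The Cd9 ratio kept its sign under each alternative in all 8 classes, from 0.76 up to 1.49 for resident macrophages and from 0.85 up to 2.25 for inflammatory monocytes, as classed here. It ran from 0.02 to 1.21 in T-like cells, and from 0.23 (stricter cell filter) to 0.91 in eosinophil-like cells. The Cd81 ratio was between 1.76 and 2.82 in cDC1-like and between 1.81 and 3.06 in cDC2-like cells. The Cd63 ratio was between -3.65 and -1.74 in T-like and between -2.85 and, with the top 3% of doublet scores removed, -0.57 in B-like cells. These signs changed, and the cause was not tested. With a stricter cell filter the log2 ratio was -0.036 for Cd37 and -0.015 for Cd53 in inflammatory monocyte-like, 1.07 for Cd63 in resident macrophage-like and -0.32 for Cd81 in T-like cells. With each library clustered alone it was -0.032 for Cd37 in B-like, 0.36 for Cd53 and -0.32 for Cd82 in cDC2-like, and 0.18 for Cd63 in resident macrophage-like cells. With 4000 variable genes it was -0.35 for Cd53 in inflammatory monocyte-like, -0.040 for Cd81 and -0.077 for Cd82 in T-like cells. With tetraspanin genes allowed it was -0.015 for Cd53 and 0.20 for Cd81 in inflammatory monocyte-like and 1.06 for Cd63 in resident macrophage-like cells. By marker score it was -0.071 for Cd53 and 0.28 for Cd81 in inflammatory monocyte-like and 0.052 for Cd63 in resident macrophage-like cells. At Leiden resolution 2 it was -0.068 for Cd63 in eosinophil-like, 0.51 for Cd63 in resident macrophage-like and -0.22 for Cd81 in T-like cells. At resolution 0.5 Cd63 stood at 0.25 in resident macrophage-like cells, and with every deposited barcode at 0.93.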
